A study of Mus musculus with 8 samples.

Results

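The 9 genes described here encode the MHC class II antigen presentation pathway of the mouse. They were chosen by name: the rows of the deposited lung expression table whose gene symbol is H2-Aa, H2-Ab1, H2-Eb1, H2-DMa, H2-DMb1, H2-Oa, H2-Ob, Cd74 or Ciita, 9 of 25965 genes. No measured value entered this rule, but the choice was made with earlier results of these data known. The table comes from whole lung RNA of mice that lack WFDC2, a secreted protein of the airway epithelium, and of their littermate controls, taken in late gestation (E18.5, in embryonic days) and shortly after birth (P1.5, in postnatal days). There were 4 groups of 2 libraries, 8 in all: E18.5 Wfdc2+/+, E18.5 Wfdc2GFP/GFP, P1.5 Wfdc2+/+ and P1.5 Wfdc2GFP/GFP. In the Wfdc2GFP/GFP mice both copies of Wfdc2 carry an IRES-EGFP cassette in place of part of the first exon and the whole of the second. The line was made from TT2 embryonic stem cells, Cre under the CAG promoter was used to remove the selection marker, and the strain of the mice sequenced is not given in the labels. The allele is carried in the germ line, so every cell of a mutant has it, and the labels name no treatment.

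Class II molecules present peptides from endosomes to CD4 T cells. An alpha and a beta chain (H2-Aa with H2-Ab1, and H2-Eb1 with its own alpha partner) assemble in the endoplasmic reticulum around the invariant chain, encoded by Cd74, which blocks the groove and steers the complex to endosomes. There the H2-DM heterodimer (H2-DMa with H2-DMb1) exchanges the remnant of the invariant chain for peptide, and the H2-O heterodimer (H2-Oa with H2-Ob) restrains H2-DM. Ciita encodes a coactivator that binds no DNA itself but is drawn to class II promoters by the factors on their X and Y boxes. In lung the pathway is known from dendritic cells, macrophages and B cells, and alveolar type II cells carry class II as well.

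The promoters of the members were searched first for letters of the X and Y boxes named above. RefSeq windows of 300 bases (GRCm38.p6, 250 before to 50 after the start site) were found for 6 of the 9 genes and searched on both strands for an X core (GNNACNNAT) followed after 20 to 28 bases by ATTGG, the reverse complement of the CCAAT letters of a Y box. Capitals below mark these letters, and each stretch is read 5′ to 3′ on the strand of its gene. H2-Eb1 (chr17:34305764-34305824, plus strand) and H2-Ob (chr17:34238806-34238864, plus strand) hold the pair, H2-Eb2 (chr17:34325531-34325591, plus strand), a neighbour of H2-Eb1 in the class II locus, holds it too, and H2-Aa (chr17:34287855-34287916, minus strand) holds only ATTGG.
H2-Eb1: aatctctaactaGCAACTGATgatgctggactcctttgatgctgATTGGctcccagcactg
H2-Ob: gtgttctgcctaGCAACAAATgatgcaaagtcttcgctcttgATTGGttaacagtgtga
H2-Eb2: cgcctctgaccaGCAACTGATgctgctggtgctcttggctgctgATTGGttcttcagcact
H2-Aa: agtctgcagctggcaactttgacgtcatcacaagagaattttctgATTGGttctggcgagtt
The gap between the capitals is 23 bases in H2-Eb1, 21 in H2-Ob and 23 in H2-Eb2. H2-DMb1 holds the pair as well, with a gap of 24 bases, and H2-Oa holds ATTGG alone. The pair was thus found in 3 of the 6 members with a window. No window was found for H2-Ab1, Cd74 and Ciita. Of all 32851 windows, 69 (0.21%) hold the pair, from 65 genes, and 9 of these carry an H2- symbol, of 32 such genes with a window. Of the 9, H2-DMb1, H2-Eb1, H2-Eb2 and H2-Ob are class II genes. The rest, H2-D1, H2-M3, H2-Q4, H2-Q6 and H2-Q7, are not, so the pair was not confined to class II genes. ATTGG by itself is in 37.4% of windows and the X core by itself in 25.3%, on either strand. The windows of H2-DMa start 9664 and 12350 bases from the start in the deposited table and were not compared further.

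All 8 libraries held between 19457647 and 37209332 reads in genes, so that a detection floor of 3 reads equals 0.0806 to 0.154 RPM (reads scaled to 1000000 per library). Wfdc2 checked the labels, with 8038 to 32845 reads in the Wfdc2+/+ libraries and 0 to 12 in the Wfdc2GFP/GFP libraries. Lung markers (8 genes, among them Sftpc and Scgb1a1) were read in all libraries. Replicates of a group were not equally close. The median gap between them over the 15627 genes tested was 0.14 on the log2 scale in E18.5 Wfdc2+/+, 0.56 in E18.5 Wfdc2GFP/GFP, 0.80 in P1.5 Wfdc2+/+ and 0.38 in P1.5 Wfdc2GFP/GFP. For P1.5 Wfdc2+/+, replicate 1 minus replicate 2 had a median of -0.60 over these genes. In each group replicate 1 had high Xist (4121 to 90980 reads, against 1 to 13 in replicate 2) and replicate 2 high Ddx3y (972 to 2175 reads, against 0 to 3), so sex differed between the replicates of every group and was the same across groups. E18.5 Wfdc2GFP/GFP replicate 1 also carried 148 reads of Aire, a gene of thymic epithelium singled out here after its values were seen, where the other 7 libraries held 0 to 6. These libraries are named beside each result that rests on them.

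Levels of the 9 genes can be set beside each other only per length, and were computed as RPM per kilobase of annotated exon (exonic RPKM). The annotated exons of H2-Ab1, H2-DMa, H2-Ob and Ciita reach beyond the deposited span (H2-DMa starts at 34119541 against 34135182). Their values may therefore be too low beside the others. The order also rests on exon lengths that differ between partners, 5380 bases for H2-Ob and 1407 for H2-Oa. Cd74 was the most abundant in 8 of 8 libraries, at 6.31 to 81.4 exonic RPKM with a median of 20.95. The classical chains and H2-DM came next, with medians of 2.93 for H2-DMb1, 2.34 for H2-Eb1, 1.72 for H2-DMa, 1.45 for H2-Ab1 and 1.22 for H2-Aa. The ranges of these 5 over the libraries overlapped, and their order was not the same from library to library. H2-Oa (0.0955 to 0.875) and H2-Ob (0.0342 to 0.375) lay below them with medians of 0.251 and 0.192, and their ranges overlapped too. Ciita was lowest in 7 of 8 libraries, with a median of 0.102 exonic RPKM, and in E18.5 Wfdc2GFP/GFP replicate 1 it stood above H2-Oa and H2-Ob. In the deposited log2 RPKM, which divides by the whole span of the gene with introns, Cd74 was again first in 8 of 8 libraries, while H2-DMa moved to the second place in 6 of 8.

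The pair of chains that form the I-A molecule followed 1 library pattern. For H2-Aa (chr17:34282744-34287827, minus strand), the alpha chain, 140 and 162 reads were counted in E18.5 Wfdc2+/+, 51 and 115 in E18.5 Wfdc2GFP/GFP, 58 and 498 in P1.5 Wfdc2+/+, and 269 and 847 in P1.5 Wfdc2GFP/GFP, with replicate 1 given first here and below. As log2 RPKM these were -0.32 and 0.03, -1.89 and -0.37, -0.93 and 2.33, and 1.19 and 2.51. Of the P1.5 libraries, 3 lay above all those of E18.5, and P1.5 Wfdc2+/+ replicate 1 lay below 3 of the 4 E18.5 libraries. For H2-Ab1 (chr17:34263209-34269418, plus strand), the beta chain, log2 RPKM was -1.16 and -0.92 in E18.5 Wfdc2+/+, -3.10 and -0.57 in E18.5 Wfdc2GFP/GFP, -2.99 and 1.62 in P1.5 Wfdc2+/+, and 1.55 and 1.87 in P1.5 Wfdc2GFP/GFP. The fewest reads behind them were 17, in P1.5 Wfdc2+/+ replicate 1, and the most were 665, in P1.5 Wfdc2GFP/GFP replicate 2. Again the same 3 P1.5 libraries were high, and P1.5 Wfdc2+/+ replicate 1 and E18.5 Wfdc2GFP/GFP replicate 1 were low.

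H2-Eb1 (chr17:34305883-34316199, plus strand) encodes the beta chain of I-E. It had log2 RPKM of -2.03 and -1.15 in E18.5 Wfdc2+/+, -3.68 and -1.21 in E18.5 Wfdc2GFP/GFP, -3.16 and 0.73 in P1.5 Wfdc2+/+, and 0.39 and 0.78 in P1.5 Wfdc2GFP/GFP, from 25 to 517 reads. The replicates of P1.5 Wfdc2+/+ lay further apart than the groups did. Cd74 on chromosome 18, read most deeply of the 9, had log2 RPKM of 1.95 and 2.00 in E18.5 Wfdc2+/+, 0.33 and 2.00 in E18.5 Wfdc2GFP/GFP, 0.27 and 3.71 in P1.5 Wfdc2+/+, and 3.22 and 3.96 in P1.5 Wfdc2GFP/GFP. In reads these were 1168 and 1095, 412 and 1030, 230 and 2245, and 1894 and 4001, so even its lowest libraries held 230 and 412 reads. The other 3 E18.5 libraries stood close together at 1.95 to 2.00, with E18.5 Wfdc2GFP/GFP replicate 1 apart.

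The peptide editor genes spread less. H2-DMa (chr17:34135182-34139101, plus strand) had log2 RPKM of 0.38 and 0.34 in E18.5 Wfdc2+/+, -0.26 and 0.79 in E18.5 Wfdc2GFP/GFP, -0.50 and 1.10 in P1.5 Wfdc2+/+, and 1.82 and 1.41 in P1.5 Wfdc2GFP/GFP. Its highest library was 5.0 times the lowest, against 31.3 times for H2-Ab1, 21.9 for H2-Eb1, 21.1 for H2-Aa and 12.9 for Cd74. H2-DMb1 (chr17:34153072-34160223, plus strand) had -0.58 and -0.85, -1.36 and -0.50, -2.32 and 0.11, and -0.06 and 0.32 in the same order, a 6.25-fold range. Both had their lowest value in P1.5 Wfdc2+/+ replicate 1. Of the distinct runs of 36 bases in the H2-DMb1 transcripts, 28.7% also occur in H2-DMb2, a second beta chain gene of H2-DM next to it, so reads may have been divided between them. H2-DMb2 itself held 8 to 46 reads per library.

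The regulators of the editor were read thinly. H2-Oa (chr17:34092340-34095234, plus strand) had 8 and 12 reads in E18.5 Wfdc2+/+, 5 and 9 in E18.5 Wfdc2GFP/GFP, 7 and 9 in P1.5 Wfdc2+/+, and 15 and 36 in P1.5 Wfdc2GFP/GFP, or log2 RPKM of -3.64 and -2.91, -4.43 and -3.23, -3.17 and -2.65, and -2.16 and -1.23. Both P1.5 Wfdc2GFP/GFP libraries were above the other 6. The antisense gene BC051537 covers the whole of H2-Oa in GENCODE M21 and shares 17.6% of its runs of 36 bases, and since the strand setting of the counting is not given, reads of this gene cannot be told from those of H2-Oa. H2-Ob (chr17:34238903-34245907, plus strand) had 40 and 28, 18 and 59, 4 and 27, and 17 and 46 reads in the same order of groups, or log2 RPKM of -2.59 and -2.96, -3.86 and -1.80, -5.25 and -2.34, and -3.25 and -2.16. In H2-Ob the P1.5 libraries lay within or below the range of E18.5, unlike H2-Aa, H2-Ab1, H2-Eb1 and Cd74, where 3 of them lay above it.

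Ciita (chr16:10488178-10527564, plus strand), the coactivator, showed only part of the pattern of the classical chains. It had 37 and 22 reads in E18.5 Wfdc2+/+, 44 and 29 in E18.5 Wfdc2GFP/GFP, 1 and 43 in P1.5 Wfdc2+/+, and 5 and 28 in P1.5 Wfdc2GFP/GFP. Scaled for depth, P1.5 Wfdc2+/+ replicate 2 was highest at 2.21 RPM and P1.5 Wfdc2+/+ replicate 1 lowest at 0.0461, so these replicates stood apart as they did in the classical chains. Unlike in those, E18.5 Wfdc2GFP/GFP replicate 1 was the highest E18.5 library at 1.18 RPM, and P1.5 Wfdc2GFP/GFP replicate 1 stood at 0.216 RPM, below all of E18.5. With 1 read in a library the precision is poor. Its span of 39387 bases kept its mean under 0.05 RPKM, the filter of the test, so 8 of the 9 members were tested and Ciita was not. Fitted without that filter, Ciita gave a log2 difference of 0.51 ± 1.70 (SE) between genotypes at P1.5 and -1.25 ± 1.70 between stages in Wfdc2GFP/GFP, with limma's adjusted p-values of 0.874 and 0.585.

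**Figure D1:**
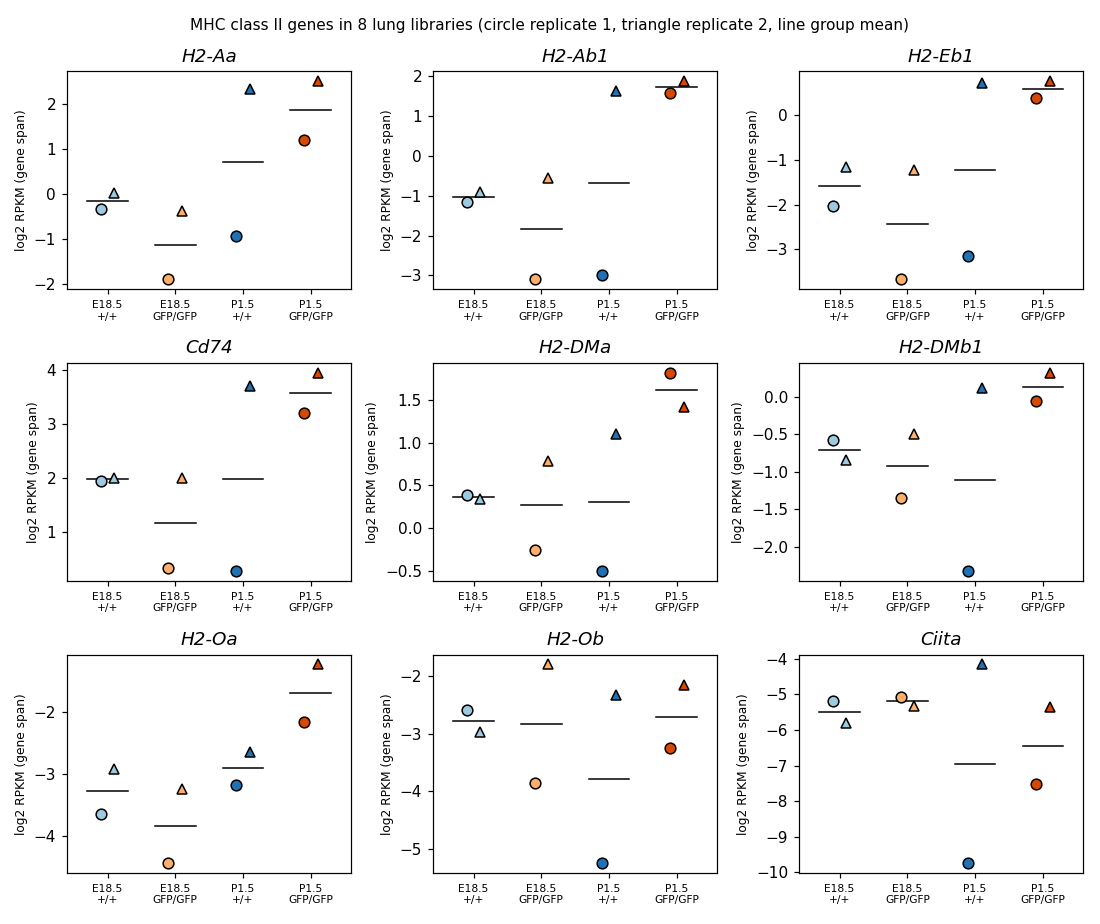
Deposited log2 RPKM (per kilobase of gene span, vertical axis, a separate scale in each panel) of the 9 class II genes in the 4 groups, with circles for replicate 1, triangles for replicate 2 and a line at the group mean. In the panels of H2-Aa, H2-Ab1, H2-Eb1 and Cd74 the 3 high P1.5 points stand over every E18.5 point, and the circles of P1.5 +/+ and E18.5 GFP/GFP stand low.

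The first question was whether the class II genes differed between genotypes at P1.5, after breathing has begun. Differences between groups were tested with limma on the deposited log2 RPKM over the 15627 genes that averaged 0.05 RPKM or more, and p-values were adjusted by the Benjamini-Hochberg method. All 8 members tested had a higher mean in P1.5 Wfdc2GFP/GFP than in P1.5 Wfdc2+/+, with a median log2 difference of 1.28 against -0.20 for all genes tested, yet 0 of the 8 had an adjusted p-value under 0.05 (0.0128% of all genes did) and 0 of 8 an unadjusted one (10.9% of all genes did). The largest difference was that of H2-Ab1, 2.40 ± 1.37 (SE) on the log2 scale with a 95% interval of -0.77 to 5.57. H2-Eb1 had 1.80 ± 1.24, Cd74 1.60 ± 1.02, and H2-DMa 1.31 ± 0.57. H2-DMb1 (1.24), H2-Oa (1.21), H2-Aa (1.15) and H2-Ob (1.09) were close behind, and the adjusted p-values by limma ranged from 0.458 for H2-DMa to 0.752 for H2-Ob. The groups did not overlap for 2 of 8 members, H2-DMa and H2-Oa, both higher in the mutants, where 12.6% of all genes tested were higher without overlap. An exact permutation test of 2 libraries against 2 cannot give a p-value below 0.33, so it was not used for single genes.

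The direction at P1.5 rested on 1 control library. Without P1.5 Wfdc2+/+ replicate 1, the median log2 difference of the 8 members was -0.05, with 4 higher and 4 lower. Of all genes tested, 26.7% were then higher, and their median was -0.44. H2-Ab1 then stood at 0.09, H2-DMb1 at 0.02, Cd74 at -0.13, H2-Eb1 at -0.15, H2-Ob at -0.37 and H2-Aa at -0.48. H2-DMa stood at 0.51 and H2-Oa at 0.95. Without P1.5 Wfdc2+/+ replicate 2 instead, the median was 2.66. With all 8 libraries, 3 of 8 members had an unadjusted p-value under 0.05 by limma after median centring (2069 of 15627 genes did). With quantile normalization, either pseudocount or the replicate block, 2 of 8 did (1442 to 1892 genes). With voom 1 of 8 did (2098 genes), and with a filter at 0.5 RPKM 1 of 6 (936 of 9422 genes). After adjustment no member passed in these fits. In whole lung, fewer cells of a type and less RNA per cell cannot be told apart, here and in the results that follow.

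At E18.5, before birth, the 8 members tested were lower in Wfdc2GFP/GFP, with a median log2 difference of -0.68 against 0.09 for all genes tested. By limma 0 of 8 had an adjusted p-value under 0.05 (0.0192% of all genes did) and 0 of 8 an unadjusted one (4.37% of all genes did). The differences ran from -0.99 ± 1.02 (SE) for H2-Aa, through -0.86 for H2-Eb1, -0.81 for Cd74, -0.80 for H2-Ab1 and -0.56 for H2-Oa, to -0.22 for H2-DMb1, -0.10 for H2-DMa and -0.05 for H2-Ob. For H2-Aa alone the groups did not overlap, 1 of 8 members where 36.0% of all genes tested did not overlap in either direction. Without E18.5 Wfdc2GFP/GFP replicate 1 the median was 0.29, 7 of the 8 members were higher in the mutant, and H2-Aa stood at -0.23. All genes tested then had a median of 0.14, and 62.5% of them were higher.

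The genotype differences of the 2 stages were compared directly. The difference at P1.5 exceeded that at E18.5 for 8 of 8 members, by a median of 1.95 on the log2 scale, where all genes tested had a median of -0.33. It was 3.19 ± 1.94 (SE) for H2-Ab1, 2.66 for H2-Eb1, 2.40 for Cd74, 2.13 for H2-Aa and 1.77 for H2-Oa, with limma's adjusted p-values between 0.536 and 0.852 over the 8 members. By limma 0 of 8 members passed the adjusted threshold, as did 0.0% of all genes, and 0 of 8 had an unadjusted p-value under 0.05, against 10.2% of all genes. Without P1.5 Wfdc2+/+ replicate 1 and E18.5 Wfdc2GFP/GFP replicate 1 together, an alternative chosen after seeing the data, the median was -0.22 and 2 of 8 members had a positive value. All genes tested then had a median of -0.58, and 24.5% were positive. Without the first alone the median of the members was 0.64 with 7 of 8 positive, where 26.6% of all genes were. Without the second alone it was 1.27 with 8 of 8 positive, where 36.1% of all genes were.

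The second question was how the genes changed from E18.5 to P1.5. In Wfdc2GFP/GFP, 8 of 8 members had a higher mean at P1.5, by a median of 2.28 on the log2 scale against -0.46 for all genes tested. H2-Ab1 was 11.7-fold higher at P1.5 (log2 difference 3.55 ± 1.37, SE), H2-Eb1 8.16-fold (3.03 ± 1.24), H2-Aa 7.90-fold (2.98 ± 1.02), Cd74 5.36-fold (2.42 ± 1.02) and H2-Oa 4.39-fold (2.13 ± 0.59). H2-DMa was 2.55-fold and H2-DMb1 2.08-fold higher, while H2-Ob was at 1.09-fold with a 95% interval of the log2 difference from -2.26 to 2.50. The 2 groups did not overlap for 7 of 8 members, all but H2-Ob, where 18.7% of all genes tested were higher without overlap. Unadjusted p-values were under 0.05 for 6 of 8 members, all but H2-DMb1 and H2-Ob, where 9.61% of all genes tested were that and higher. The 6 became 0 without E18.5 Wfdc2GFP/GFP replicate 1 or without P1.5 Wfdc2GFP/GFP replicate 2, and 2 without P1.5 Wfdc2GFP/GFP replicate 1 or, of 9, without the filter. After adjustment over all genes 0 of 8 passed, against 4.55% of all genes in either direction (252 higher and 459 lower, or 849 higher and 430 lower after each library was centred on its median). Limma's adjusted p-values were 0.0649 for H2-Oa, 0.0886 for H2-Aa, 0.112 for H2-Ab1, 0.126 for H2-Eb1, 0.134 for Cd74, 0.135 for H2-DMa, 0.320 for H2-DMb1 and 0.934 for H2-Ob.

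In this contrast the call depended on the fit. With only the 4 Wfdc2GFP/GFP libraries, limma's adjusted p-values were under 0.05 for 5 members, Cd74, H2-Aa, H2-Ab1, H2-Eb1 and H2-Oa, at 0.0109 to 0.0396. After each library was centred on its median, or with voom on the recovered reads, 2 members passed, H2-Aa (0.0476 and 0.0473) and H2-Oa (0.0385 and 0.0477), and after quantile normalization 1 did, H2-Oa (0.0419). Without E18.5 Wfdc2GFP/GFP replicate 1, the median difference of the 8 members was 1.56, with H2-Ab1 at 2.29, H2-Aa at 2.22, H2-Eb1 at 1.80 and Cd74 at 1.59, while H2-Ob turned to -0.91. The 5 comparisons share libraries with each other, so that E18.5 Wfdc2GFP/GFP replicate 1 enters the stage difference in the mutants and the genotype difference at E18.5 alike.

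In Wfdc2+/+ the replicates of P1.5 disagreed, and the stage difference had a median of 0.19 over the 8 members, with 5 higher and 3 lower at P1.5. H2-Aa had 0.85 ± 1.02 (SE), H2-Eb1 0.37, H2-Oa 0.37, H2-Ab1 0.36, Cd74 0.02, H2-DMa -0.06 (0.20 after median centring and 0.17 with voom), H2-DMb1 -0.40 and H2-Ob -1.01. By limma 0 of 8 members had an adjusted p-value under 0.05 (0.0576% of all genes did) or an unadjusted one (11.8% of all genes did), and 0 of 8 were higher without overlap, where 27.4% of all genes tested were. Without P1.5 Wfdc2+/+ replicate 1, the median was 1.28 and 8 of 8 members were higher at P1.5, where 62.3% of all genes tested were. H2-Ab1 was higher by 2.66, H2-Aa by 2.48, H2-Eb1 by 2.32 and Cd74 by 1.74. H2-DMb1 then stood at 0.82, H2-DMa at 0.74 and H2-Ob at 0.44. Voom on the recovered reads likewise called 0 of 8 members in this comparison, in both genotype comparisons and in their difference.

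**Figure D2:**
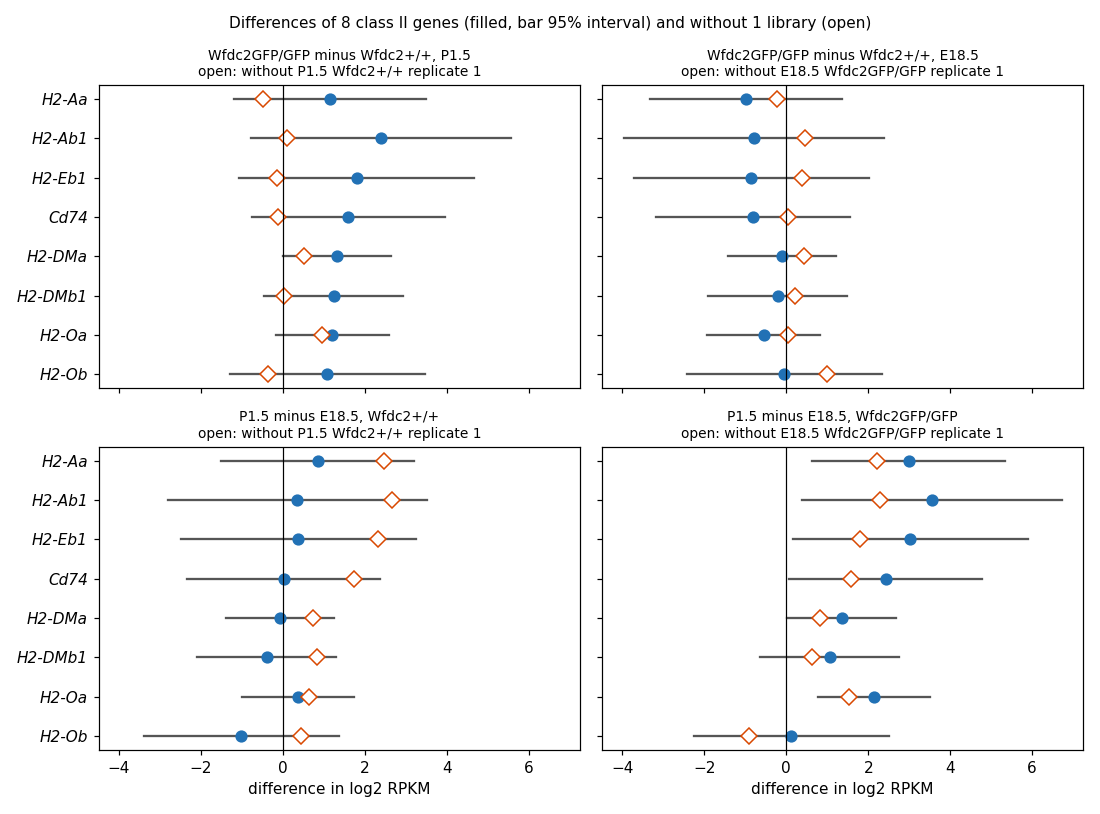
Difference in log2 RPKM (horizontal axis) of the 8 class II genes tested in 4 comparisons, with filled circles for all 8 libraries, bars for limma's 95% intervals and open diamonds for the value without the library named over each panel. At P1.5 the filled circles lie between 1.09 and 2.40 and the diamonds between -0.48 and 0.95, and in the Wfdc2GFP/GFP stage panel H2-Ob alone has its diamond below 0.

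The chains that work as a pair did not keep 1 ratio of reads from library to library. Of the reads of H2-Ab1 and H2-Aa together, H2-Ab1 took 40.7% and 38.6% in E18.5 Wfdc2+/+, 34.6% and 51.5% in E18.5 Wfdc2GFP/GFP, 22.7% and 42.7% in P1.5 Wfdc2+/+, and 61.1% and 44.0% in P1.5 Wfdc2GFP/GFP. The exact (Clopper-Pearson) 95% interval was 13.8% to 33.8% in P1.5 Wfdc2+/+ replicate 1 and 57.3% to 64.7% in P1.5 Wfdc2GFP/GFP replicate 1, so these libraries stood on opposite sides of the other 6 and their intervals did not meet. Such intervals cover counting error only, since reads were not marked by molecule. H2-Eb1 stayed nearer to H2-Ab1, with 42.6% to 59.5% of the reads of that pair.

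For H2-DM, H2-DMa held 51.6% to 57.2% of the reads of both chains in 6 libraries. It held 65.9% (exact 95% interval 55.3% to 75.5%) in P1.5 Wfdc2+/+ replicate 1 and 66.8% (62.4% to 71.0%) in P1.5 Wfdc2GFP/GFP replicate 1, 1 library of each genotype. The ratio of Cd74 to H2-Aa reads was 6.76 to 8.96 in the 4 E18.5 libraries and 3.97, 4.51, 7.04 and 4.72 in those of P1.5, with P1.5 Wfdc2GFP/GFP replicate 1 the highest of the latter. H2-Oa was 0.0410 to 0.0774 of H2-DMa in reads in 6 libraries, and 0.117 and 0.118 in P1.5 Wfdc2+/+ replicate 1 and P1.5 Wfdc2GFP/GFP replicate 2.

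**Figure D3:**
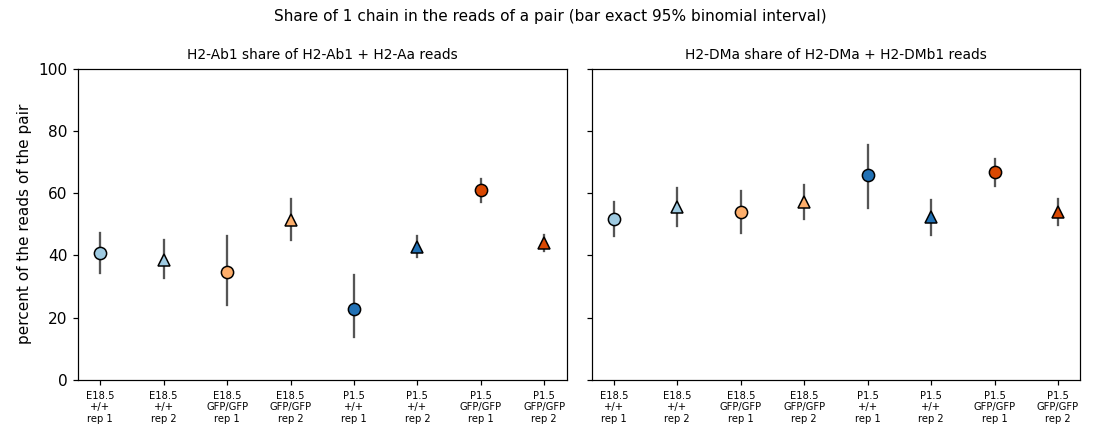
Share (percent, vertical axis) of H2-Ab1 in the reads of H2-Ab1 and H2-Aa, left, and of H2-DMa in the reads of H2-DMa and H2-DMb1, right, in each of the 8 libraries, with exact 95% binomial intervals as bars. P1.5 +/+ replicate 1 is lowest at 22.7% and P1.5 GFP/GFP replicate 1 highest at 61.1% on the left, and the same libraries are highest on the right at 65.9% and 66.8%.

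The steps around the class II molecules were read from gene lists. Of 18 genes that act on class II promoters (the RFX, NF-Y and CREB factors, and the interferon gamma pathway), 17 were tested and 0 passed the adjusted threshold in any of the 5 comparisons. At P1.5, 7 were higher in the mutants and 10 lower. Their median was -0.10, from 0.72 for Sfpi1, which encodes the myeloid factor PU.1, to -1.33 for Nfya, a subunit of NF-Y. From E18.5 to P1.5 in Wfdc2GFP/GFP, 3 were higher and 14 lower, where 36.1% of all genes tested were higher. The median of the list was -0.70, against -0.46 for all genes tested and 2.28 for the class II members. Nfya had -2.30 with an adjusted p-value of 0.0578 by limma and Sfpi1 1.92 with 0.0631. In Wfdc2+/+ the list also had 3 higher and 14 lower, where 42.9% of all genes tested were higher.

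Of 11 genes for endosomal proteases and their partners, 10 were tested and 0 passed in any comparison. At P1.5, 8 of these were higher in the mutants and 2 lower. Their median was 0.26, from 1.12 for Lgmn, the asparaginyl endopeptidase, to -0.09 for Ifi30, a thiol reductase. Between stages in Wfdc2GFP/GFP their median was 0.94, led by Ctsd, a cathepsin, with 1.71 and an adjusted p-value of 0.0506 by limma. At E18.5 Ctss, the cathepsin that trims the invariant chain, was the lowest of the list at -0.68, and 7 of 10 were lower. Ctss stood at 27.7 RPM in E18.5 Wfdc2GFP/GFP replicate 1, against 64.9 in its replicate and 67.7 and 68.2 in E18.5 Wfdc2+/+. The median of the list at E18.5 was -0.09, and 0.25 without E18.5 Wfdc2GFP/GFP replicate 1. Of the 2 genes tested of 3 that control how long class II molecules stay at the surface, Cd83 had 1.54 and March8, a ubiquitin ligase, 0.30 at P1.5, and neither passed.

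The class I pathway, which loads peptides from the cytosol, was measured by 14 genes, of which 13 were tested and 0 passed. All 13 were higher in P1.5 Wfdc2GFP/GFP, with a median of 0.71, from 1.45 for Tap1, a peptide transporter subunit, to 0.05 for Calr, a chaperone. All 13 were lower in E18.5 Wfdc2GFP/GFP, with a median of -0.41. Without P1.5 Wfdc2+/+ replicate 1 the P1.5 median was 0.50 for class I and -0.05 for the class II members, and without E18.5 Wfdc2GFP/GFP replicate 1 the E18.5 median was 0.10 for class I and 0.29 for class II. In reads, the class II members (H2-O and Ciita left out) were 0.0136 and 0.0635 of the class I list in P1.5 Wfdc2+/+, 0.0539 and 0.0754 in P1.5 Wfdc2GFP/GFP, and 0.00961 to 0.0270 in the 4 E18.5 libraries. Of 6 costimulatory genes, 4 were tested and 0 passed. They ranged at P1.5 from 0.81 for Icosl to -0.10 for Cd274, which encodes PD-L1.

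Cells that carry class II were followed by markers. Ptprc, the pan-leukocyte gene, stood at 17.95 and 16.5 RPM in E18.5 Wfdc2+/+, 12.4 and 10.6 in E18.5 Wfdc2GFP/GFP, 5.62 and 24.8 in P1.5 Wfdc2+/+, and 13.1 and 19.4 in P1.5 Wfdc2GFP/GFP. The 6 best-read class II members (H2-Aa, H2-Ab1, H2-Eb1, H2-DMa, H2-DMb1 and Cd74) summed to 53.2 and 57.2, 20.05 and 59.6, 19.4 and 193.3, and 145.8 and 225.5 RPM in the same order. P1.5 Wfdc2+/+ replicate 1 was thus lowest in both. Divided by Ptprc, the class II sum was 1.61 to 5.61 in the 4 E18.5 libraries, 3.45 and 7.79 in P1.5 Wfdc2+/+, and 11.1 and 11.6 in P1.5 Wfdc2GFP/GFP. Per Ptprc read, P1.5 Wfdc2+/+ replicate 1 lay within the E18.5 range, and the other 3 P1.5 libraries lay above it.

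The 11 macrophage and monocyte genes summed to 818 and 880 RPM in E18.5 Wfdc2+/+, 352 and 651 in E18.5 Wfdc2GFP/GFP, 758 and 1320 in P1.5 Wfdc2+/+, and 1338 and 1408 in P1.5 Wfdc2GFP/GFP. Lyz2, lysozyme of myeloid cells, had the most reads of the list in 7 of 8 libraries and set the order of these sums. The other 10 genes summed to 264 and 259, 267 and 253.5, 217 and 317.5, and 223 and 299 RPM, so that without Lyz2 neither the low E18.5 Wfdc2GFP/GFP replicate 1 nor the high P1.5 Wfdc2GFP/GFP replicate 1 of the class II genes was seen. In P1.5 Wfdc2+/+, 9 of the 11 genes were lower in replicate 1 than in replicate 2. All genes tested had a median of -0.60 on the log2 scale for replicate 1 minus replicate 2. Of this list 1 higher and 1 lower gene passed the adjusted threshold between stages in Wfdc2GFP/GFP. Marco, a scavenger receptor of alveolar macrophages, rose by 3.67 ± 0.58 (SE) on the log2 scale, and Mertk, an efferocytosis receptor, had -3.00 ± 0.48, with adjusted p-values of 0.0331 and 0.0333 by limma. These calls, like all others of that comparison (4.55% of genes), were lost without E18.5 or P1.5 Wfdc2GFP/GFP replicate 1, where 0 genes were called, and 1 gene in all was called without P1.5 Wfdc2GFP/GFP replicate 2. In Wfdc2+/+ Marco was higher at P1.5 by 3.16, with an adjusted p-value of 0.103 by limma. There Mertk had log2 RPKM of -1.13 and -1.22 at E18.5, and -2.19 and -1.35 at P1.5. No marker of the list was at 0 in any library.

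The 10 dendritic cell genes summed to 30.0 and 29.1, 36.2 and 24.0, 20.2 and 49.1, and 35.1 and 45.8 RPM in the same order, and 3 of them were tested. Zbtb46, which endothelium expresses too, took the largest part of this sum, and the other 9 genes summed to 3.49 and 4.36, 3.25 and 4.65, 5.16 and 19.5, and 11.2 and 24.3 RPM. Itgax, which encodes CD11c, had 7 to 39 reads at E18.5, 23 and 214 in P1.5 Wfdc2+/+, and 101 and 298 in P1.5 Wfdc2GFP/GFP. Its 3 highest libraries were those of the classical chains, and E18.5 Wfdc2GFP/GFP replicate 1 was its lowest. P1.5 Wfdc2+/+ replicate 1 stood at 1.06 RPM, within the E18.5 range of 0.188 to 1.25 RPM. The log2 difference of Itgax between stages was 4.05 in Wfdc2GFP/GFP and 1.90 in Wfdc2+/+, with adjusted p-values of 0.0679 and 0.451 by limma. In P1.5 Wfdc2+/+, 9 of the 10 genes were lower in replicate 1 than in replicate 2, all but Batf3. Batf3 had 66 and 25 reads there, 35 to 41 at E18.5, and 96 and 297 in P1.5 Wfdc2GFP/GFP. Between genotypes at P1.5 it led the list at 1.71, with an adjusted p-value of 0.370 by limma. The defining markers Flt3 (2 to 17 reads), Clec9a (4 to 28) and Xcr1 (1 to 21) were thin in every library, Cd209a was at 0 in both P1.5 Wfdc2GFP/GFP libraries, and Ccr7 was at 0 in E18.5 Wfdc2+/+ replicate 2 and in P1.5 Wfdc2+/+ replicate 1.

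The 7 B cell genes summed to 9.64 and 10.4, 8.68 and 13.2, 16.7 and 39.7, and 34.45 and 53.8 RPM. Between stages, all 5 genes tested were higher at P1.5 in both genotypes, by a median log2 difference of 2.90 in Wfdc2+/+ and 1.74 in Wfdc2GFP/GFP. In Wfdc2GFP/GFP, where 4.55% of all genes passed the adjusted threshold, 2 did, both parts of the B cell receptor complex. Cd79a had 4.05 ± 0.72 (SE) and Cd79b 1.74 ± 0.32, with adjusted p-values of 0.0390 and 0.0424 by limma. These calls were lost without E18.5 or P1.5 Wfdc2GFP/GFP replicate 1. In Wfdc2+/+ Cd79a had 4.03 and Cd79b 0.39, with adjusted p-values of 0.0905 and 0.524 by limma. Pax5, the defining B lineage factor, was at 0 in E18.5 Wfdc2+/+ replicate 1 and held 1 to 55 reads elsewhere. Of 7 genes on the CD4 T cell side, 3 were tested and 1 passed in any comparison. Cd3g, a chain of the T cell receptor complex, had 6 and 6 reads in E18.5 Wfdc2+/+ and 14 and 48 in P1.5 Wfdc2+/+. It had 1 and 0 reads in E18.5 Wfdc2GFP/GFP and 26 and 91 in P1.5 Wfdc2GFP/GFP. Between stages in Wfdc2GFP/GFP it passed with an adjusted p-value of 0.0210 by limma. The fit takes 0.9 read in place of 0 and the earlier Wfdc2GFP/GFP group lies under the floor of 3 reads, so no fold is given. Cd4 itself held 2 to 28 reads.

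The 8 alveolar type II genes summed to 18680 and 21760, 9781 and 23670, 57000 and 28990, and 67030 and 48650 RPM, most of it Sftpc, the gene of surfactant protein C. The 7 genes without Sftpc summed to 3284 RPM in P1.5 Wfdc2+/+ replicate 1 and 5009 in replicate 2, and 6 of the 8 were lower in replicate 1, all but Sftpc and Napsa. Between these replicates all genes tested had a median log2 difference of -0.60. The 10 neutrophil genes, which are not class II carriers, summed to 56.0 to 88.8 RPM in the E18.5 libraries, to 1773 and 655 in P1.5 Wfdc2+/+, and to 1396 and 859 in P1.5 Wfdc2GFP/GFP. S100a8 and S100a9, subunits of calprotectin, carried the sum of P1.5 Wfdc2+/+ replicate 1. Without them it was 239 RPM there, 222 in its replicate, and 293 and 157 in P1.5 Wfdc2GFP/GFP, and 5 of the 10 genes were higher in P1.5 Wfdc2+/+ replicate 1 than in replicate 2. All 10 neutrophil genes tested were higher at P1.5 in both genotypes, by a median log2 difference of 3.28 in Wfdc2+/+ and 2.59 in Wfdc2GFP/GFP. In Wfdc2GFP/GFP, where 4.55% of all genes passed the adjusted threshold, 6 of the 10 did. S100a9 had 4.85 ± 0.50 (SE) with an adjusted p-value of 0.0189 by limma. These calls were lost without E18.5 or P1.5 Wfdc2GFP/GFP replicate 1. In Wfdc2+/+, where 0.0576% of all genes passed, only Ngp of the list did. It had 3.19 ± 0.36 with an adjusted p-value of 0.0478 by limma, a call lost without either E18.5 Wfdc2+/+ library. The thymus genes (7) stood at 5.46 RPM in E18.5 Wfdc2GFP/GFP replicate 1 and at 0.407 to 1.81 in the other 7. Aire, singled out above, made 3.98 RPM of the 5.46. Cd8b1 was at 0 in all but P1.5 Wfdc2+/+ replicate 2. The part of these cells, of sex and of the libraries in the class II values was not tested.

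**Figure D4:**
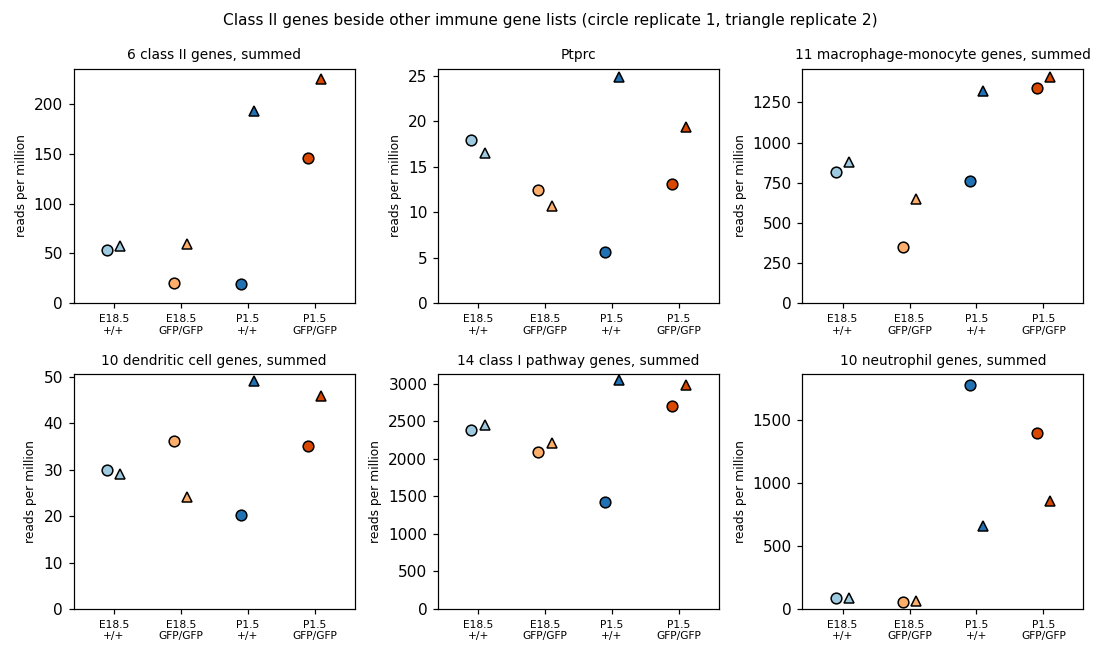
Reads scaled to 1000000 per library (RPM, vertical axis from 0, a separate scale in each panel) summed over 6 class II genes, over Ptprc and over 4 marker or pathway lists in the 8 libraries, with circles for replicate 1 and triangles for replicate 2. The circle of P1.5 +/+ is low for the class II sum (19.4) and for Ptprc (5.62), and is the highest point for the neutrophil genes (1773), most of it S100a8 and S100a9.

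Among the other genes tested with a mean of at least 20 reads (13821), 5 had a pattern over the 8 libraries most like the mean of those 6 members. Likeness was the root mean square gap of log2 RPKM after centring each gene. It was 0.37 for Endou, 0.42 for C1qtnf2, 0.45 for Clec7a, 0.46 for Rgs16 and 0.47 for Amigo3, against a median of 1.40 over all candidates. Clec7a encodes Dectin-1, a receptor of myeloid cells for fungal glucans, and had 118 and 492 reads in P1.5 Wfdc2+/+ and 458 and 905 in P1.5 Wfdc2GFP/GFP. Of the members, Cd74 was nearest to their own mean at 0.12, followed by H2-Eb1 at 0.39 and H2-Aa at 0.43. H2-Ab1 (0.60), H2-DMb1 (0.60) and H2-DMa (0.62), which also entered the mean, were further from it than the 5 genes above. H2-Oa (0.72), H2-Ob (0.94) and Ciita (1.68) did not enter the mean, and Ciita was further than the median candidate. A gene that enters the mean is drawn towards it, so the 2 sets of members cannot be compared by these values.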

How the data were processed

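Lung RNA of 8 mice was sequenced, 1 library each. Per the labels and the study's methods, the authors prepared libraries with a directional kit, trimmed reads with Trim Galore 0.4.0, and mapped them to mm10 with TopHat2 2.1.1 guided by mRNA models. SeqMonk gave counts and normalization. The submitters' processing notes also name CASAVA 1.8. The annotation version, strand setting and the sequencer of each library are not given in the sources used here. The deposited values are log2 RPKM; tested on the values, the length is the whole gene span, and 0.9 read stands in for genes with none. Whole reads were recovered for 99.86% to 99.96% of genes per library, within 0.02 of a whole number. Exonic lengths come from GENCODE M21 (GRCm38) and promoters from RefSeq GRCm38.p6.

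Groups were read from genotype and stage in the labels. Genes averaging 0.05 RPKM or more were fitted with limma 3.58.1 (R 4.3.3), 1 mean per group and a trend in the prior spread, with two-sided p-values adjusted by the Benjamini-Hochberg method over 15627 genes and a threshold of 0.05. The deposited labels give duplicate lungs per group, and p-values measure the spread between them. That spread includes the difference of sex within each group, since the main fit has no term for it. Where a library is left out, its group holds only 1 sex. Voom used library sizes scaled by a trimmed mean of log ratios (TMM). Python 3.11.15 served for the rest. Alternatives were pseudocounts, filters, centring, quantile normalization, fewer libraries, a replicate block, a prior without trend, voom and leaving out each library.

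The members and lists were chosen with earlier results of these data known. All members are named; of other lists, genes that passed, the ends of the list, Ptprc and H2-DMb2 or H2-Eb2 by rule. Marker genes given for reads at or near 0 (Aire, Flt3, Clec9a, Xcr1, Cd209a, Ccr7, Pax5, Cd4, Cd8b1), and Lyz2, Zbtb46, Sftpc and Napsa, were chosen after their values were seen. Of 143 listed symbols, 139 were in the table. The fits were tested on simulated data.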

Additional observations from a re-analysis of the deposited data

How the results depend on the processing

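Of 614 member differences recomputed under the alternatives, 546 kept their direction and their side of the threshold, 16 passed the threshold and 52 changed sign. Over the fits with libraries left out, the log2 difference between genotypes at P1.5 ran from -0.48 to 2.78 for H2-Aa, -0.15 to 3.75 for H2-Eb1, -0.13 to 3.32 for Cd74 and -0.37 to 2.54 for H2-Ob, each lowest without P1.5 Wfdc2+/+ replicate 1. At E18.5 it ran from -2.06 to 0.47 for H2-Ab1, -2.09 to 0.37 for H2-Eb1, -0.62 to 0.43 for H2-DMa, -0.64 to 0.21 for H2-DMb1, -1.15 to 0.041 for H2-Oa, -1.08 to 0.98 for H2-Ob and -1.64 to 0.029 for Cd74. The difference of the genotype effects ran from -0.26 to 3.76 for H2-Aa, -0.37 to 5.50 for H2-Ab1, -0.52 to 4.60 for H2-Eb1, -0.19 to 2.67 for H2-DMb1, -1.35 to 2.59 for H2-Ob and -0.15 to 4.13 for Cd74, with the lower ends from leaving out 2 libraries together (named below). With 1 library left out the lowest values were 0.50 for H2-Aa, 0.89 for H2-Ab1, 0.71 for H2-Eb1, 0.24 for H2-DMb1, -0.32 for H2-Ob and 0.68 for Cd74. The stage difference in Wfdc2+/+ ran from -0.78 to 2.48 for H2-Aa, -1.95 to 2.66 for H2-Ab1, -1.57 to 2.32 for H2-Eb1, -0.87 to 0.74 for H2-DMa, -1.61 to 0.82 for H2-DMb1, -2.47 to 0.44 for H2-Ob and -1.70 to 1.74 for Cd74, and that in Wfdc2GFP/GFP from -0.91 to 1.15 for H2-Ob.

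Members called stayed at 0 of 8 in the genotype comparisons and their difference under every alternative run. In the stage comparison of Wfdc2GFP/GFP, 0 became 2 with median centring, 1 with quantile normalization, 5 with only the 4 libraries compared and 2 with voom, 1 without E18.5 Wfdc2GFP/GFP replicate 2 (H2-Oa), and 0 to 4 over all fits with libraries left out. In that of Wfdc2+/+ it was 0 to 1. The 4 (H2-Aa, H2-Ab1, H2-Eb1 and Cd74) and the 1 (H2-Ab1) came without P1.5 Wfdc2+/+ replicate 1 and E18.5 Wfdc2GFP/GFP replicate 1 together, a fit chosen after seeing the data. The sign of H2-Ob turned at E18.5 with a pseudocount of 0.1 RPKM (0.056) or 1 RPKM (0.033) and in the mutant stage comparison with 1 RPKM (-0.013). That of H2-DMa in the Wfdc2+/+ stage comparison turned with a pseudocount of 1 RPKM (0.020), median centring (0.20), quantile normalization (0.16) and voom (0.17).

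Counts of all genes called moved more. At P1.5 the 2 calls became 11 with a pseudocount of 0.1 RPKM, 5 with 1 RPKM, 21 without a filter, 5 with a prior without trend, 0 with median centring, quantile normalization, only 4 libraries or voom, 15 and 24 without P1.5 Wfdc2+/+ replicate 1 or 2, and 1 (without P1.5 Wfdc2GFP/GFP replicate 2) to 2667 with libraries left out. At E18.5 the 3 calls became 6 with a pseudocount of 0.1 RPKM, 22 without a filter, 1 with a filter at 0.5 RPKM, 1 with only 4 libraries, 8 without trend, 0 with median centring, quantile normalization or voom, and 0 to 1 with any of its 4 libraries left out. The difference of the genotype effects had 0 calls, and up to 2 without E18.5 Wfdc2GFP/GFP replicate 2 or P1.5 Wfdc2+/+ replicate 1. In Wfdc2+/+ the 9 calls between stages became 16 and 17 with the pseudocounts, 35 without a filter, 52 with a filter at 0.5 RPKM, 5 with median centring, 49 with quantile normalization (36 higher, against 4 of 9), 0 with only 4 libraries or voom, and 0 (without either E18.5 Wfdc2+/+ library) to 2166 (without P1.5 Wfdc2+/+ replicate 2). In Wfdc2GFP/GFP the 711 calls became 237 with a pseudocount of 1 RPKM, 349 without a filter, 1279 with median centring, 3036 with only 4 libraries, 1717 with voom, 0 without E18.5 or P1.5 Wfdc2GFP/GFP replicate 1, 1 without P1.5 Wfdc2GFP/GFP replicate 2, 2449 without E18.5 Wfdc2GFP/GFP replicate 2, and up to 2778. Median centring moved the median of all genes from -0.46 to 0.21 in that comparison and from -0.20 to 0.00 at P1.5. The counts of 2667 and 2778 came without both libraries named above. Where a group keeps 1 library, it is assumed to vary like the other groups.

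Replicate numbers are not stated to pair mice. Same-numbered libraries deviated together within a stage (r = 0.23 at E18.5 and 0.21 at P1.5 across genes) and less or oppositely across stages (-0.29 to 0.08), and replicate 1 and 2 also differed in sex. With the replicate number as a block, the counts of all genes called became 0 at P1.5, 0 at E18.5, 0 between stages in Wfdc2+/+ and 125 in Wfdc2GFP/GFP, and members called stayed at 0 of 8. Depth limits H2-Oa, H2-Ob and Ciita, with as few as 5, 4 and 1 reads in a library.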

Other observations

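H2-Eb2, a beta chain gene beside H2-Eb1 whose promoter holds the same pair of letters, was read little, with 3 and 0 reads in E18.5 Wfdc2+/+, 3 and 0 in E18.5 Wfdc2GFP/GFP, 5 and 0 in P1.5 Wfdc2+/+, and 7 and 6 in P1.5 Wfdc2GFP/GFP, so no fold is given. H2-DMb2 took 7.41% to 20.5% of the reads of H2-DMb1 and H2-DMb2 together, and its log2 difference between genotypes at P1.5 was 1.45, with an adjusted p-value of 0.406 by limma, beside 1.24 for H2-DMb1. The E18.5 Wfdc2GFP/GFP library with 148 Aire reads and 23 Rag1 reads carried 20.05 RPM of the 6 class II members, and its replicate, with 6 Aire and 3 Rag1 reads, carried 59.6 RPM. Rag1 stood at 0.618 RPM in the first and at 0.617 RPM in P1.5 Wfdc2+/+ replicate 2.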
